A study of Marmota monax with 203 samples.

Results

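Type I interferons signal through a receptor of 2 chains, IFNAR1 and IFNAR2, and the 9 genes described here are the chains, kinases and transcription factors of that route together with its closest relatives. The rows listed under the symbols IFNAR1, IFNAR2, IFNGR1, JAK1, JAK2, TYK2, STAT2, STAT3 and IRF9 were taken from every deposited expression file, and all 9 of 9 symbols were present among the 17587 gene symbols. The choice by symbol used no measured value of its own but was made with earlier results of these data known, and all 9 passed the filter on low counts in every week. At rest TYK2 is bound to IFNAR1 and JAK1 to IFNAR2. When interferon alpha brings the chains together, the kinases phosphorylate STAT proteins, STAT2 among them, and these join IRF9 to form ISGF3, the complex that switches on interferon-stimulated genes (ISGs). IFNGR1 is the ligand-binding chain of the interferon gamma receptor, which works through JAK1 and JAK2, and STAT3 carries signals of interleukin-6 type cytokines to the acute phase genes of hepatocytes. Several of these components are themselves known as ISGs, so that their own level can change under interferon.

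The animals were adult woodchucks (Marmota monax) that had been infected with woodchuck hepatitis virus (WHV) as newborns and had remained chronic carriers. Animals of both sexes received either placebo, the vehicle, or recombinant woodchuck interferon alpha (wIFN-α), 3 times per week for 15 weeks. The dose of wIFN-α was 20 µg per animal at weeks 0 and 3 and 100 µg at weeks 7, 11 and 15, and the biopsies of these weeks were taken 6 hours after a dose of wIFN-α or placebo. Week 0 was the first dose of 20 µg and week 7 the first dose of 100 µg. Week -3 preceded treatment, and weeks 19 and 23 followed its end. At weeks -3, 0, 3, 7, 11, 15, 19 and 23 there were biopsies of 12, 12, 12, 12, 10, 9, 5 and 9 placebo animals and of 11, 11, 9, 9, 8, 8, 6 and 6 wIFN-α animals, from 12 and 11 animals in all. Each biopsy is whole tissue, in which fewer cells of a type and less RNA per cell cannot be told apart. The wIFN-α animal M1004, which the study excluded because it was probably clearing the virus on its own, was left out.

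The 149 biopsies held 12072840 to 84805845 reads on genes, with a median of 28754894. All 10 hepatocyte markers were detected, and they took a median of 7.27% to 14.4% of the reads in the groups of animals compared. In 3 biopsies 20 genes of skeletal muscle took over 10% of the reads, at week -3 in placebo animal F1016 (15.16%) and wIFN-α animal F1018 (15.12%) and at week 3 in placebo animal F1021 (12.38%), where the median of the biopsies other than the 6 highest was 0.0424%. Hepatocyte markers made up 0.0378% and 0.0261% of the reads in the first 2 of these, and the results at weeks -3 and 3 and the placebo changes from week -3 are also given without them. Levels are given as RPKM, that is normalized reads per kilobase of transcript scaled to the depth of the library, and fold changes as log2 differences, wIFN-α minus placebo, of the edgeR quasi-likelihood fit, with their standard errors (SE). A gene was called at a Benjamini-Hochberg adjusted p under 0.05 over all genes tested in that comparison. All adjusted p-values below come from this edgeR test unless another test is named.

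In placebo livers the order of the levels was the row listed as STAT2, whose source is uncertain and which is described further on, then STAT3, IRF9, IFNGR1, JAK1, TYK2, IFNAR2, JAK2 and IFNAR1. Averaged within each of the 12 placebo animals, STAT3 reached 32.8 ± 4.03 RPKM (SD, n = 12), IRF9 21.0 ± 2.04, IFNGR1 12.7 ± 1.31, JAK1 12.2 ± 1.53, TYK2 11.4 ± 1.54, IFNAR2 2.93 ± 0.429, JAK2 1.97 ± 0.290 and IFNAR1 1.73 ± 0.271. The chains and kinases sat below STAT3 and IRF9, and IFNAR1, JAK2 and IFNAR2 were the lowest. The order did not hold in every week. At week -3 mean IRF9 (22.1 RPKM) lay above STAT3 (20.7), and JAK1 (14.8) lay above IFNGR1 (11.2). In the 8 placebo animals biopsied at both weeks 15 and 23, IRF9 (25.9) lay above STAT3 (17.2) at week 23. In them TYK2 (15.2) then lay above IFNGR1 (13.3) and JAK1 (9.41). IFNGR1 exceeded JAK1 in 7 of the 12 animals and JAK1 exceeded TYK2 in 8, so these neighbors did not separate beyond their spread, whereas TYK2 exceeded IFNAR2 in 12 of 12 and IFNAR2 exceeded JAK2 in 12 of 12. JAK2 exceeded IFNAR1 in 9 of 12. Of the 13576 genes with a known length, 8477 had a higher placebo level than IFNAR2, 9860 a higher one than JAK2 and 10300 a higher one than IFNAR1, while 3248 lay above IFNGR1 and 1389 above STAT3.

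Under wIFN-α the 9 genes divided into 3 patterns. IFNAR2, JAK2 and IRF9 rose in each of the 5 on-treatment weeks, and STAT3 rose in 4 of them. IFNGR1 was lower than placebo at weeks 0, 7, 11 and 15, and IFNAR1 and TYK2 were lower than placebo at week 0 alone. JAK1 and the row listed as STAT2 were not called in any week. In numbers of the 9 members, at week 0 4 were higher and 3 lower than placebo by this test. The numbers were 4 and 0 at week 3, 4 and 1 at week 7, 3 and 1 at week 11, and 4 and 1 at week 15. Over all genes tested the share called higher was 18.4% and the share called lower 16.2% at week 0. These shares were 11.8% and 7.6% at week 3, 23.6% and 23% at week 7, 20.2% and 17.2% at week 11, and 22.3% and 19.2% at week 15. The 3 or 4 of 9 members called higher lay above the share of all genes in number, as did the 3 of 9 called lower at week 0. These differences rest on few genes, and whether the counts exceed the shares was not tested. With only 9 members, the 0 or 1 called lower at weeks 3 to 15 cannot be told from the share of all genes. Requiring in addition a fold change above 1.5 left JAK2, IFNAR2 and IRF9 as higher in each on-treatment week, against 10.3%, 7.24%, 11.4%, 12.6% and 13.4% of all genes, and IFNGR1 as lower at weeks 7 and 15, against 10.1% and 8.83%. By that rule no member was lower at weeks 0, 3 and 11, against 8.15%, 3.54% and 7.98% of all genes. No member was called at week -3, 19 or 23, where 0% of all genes were called in either direction by edgeR, with 130, 1859 and 2416 genes at an unadjusted p under 0.05. DESeq2 called 0, 170 and 51 genes in these weeks.

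**Figure D1:**
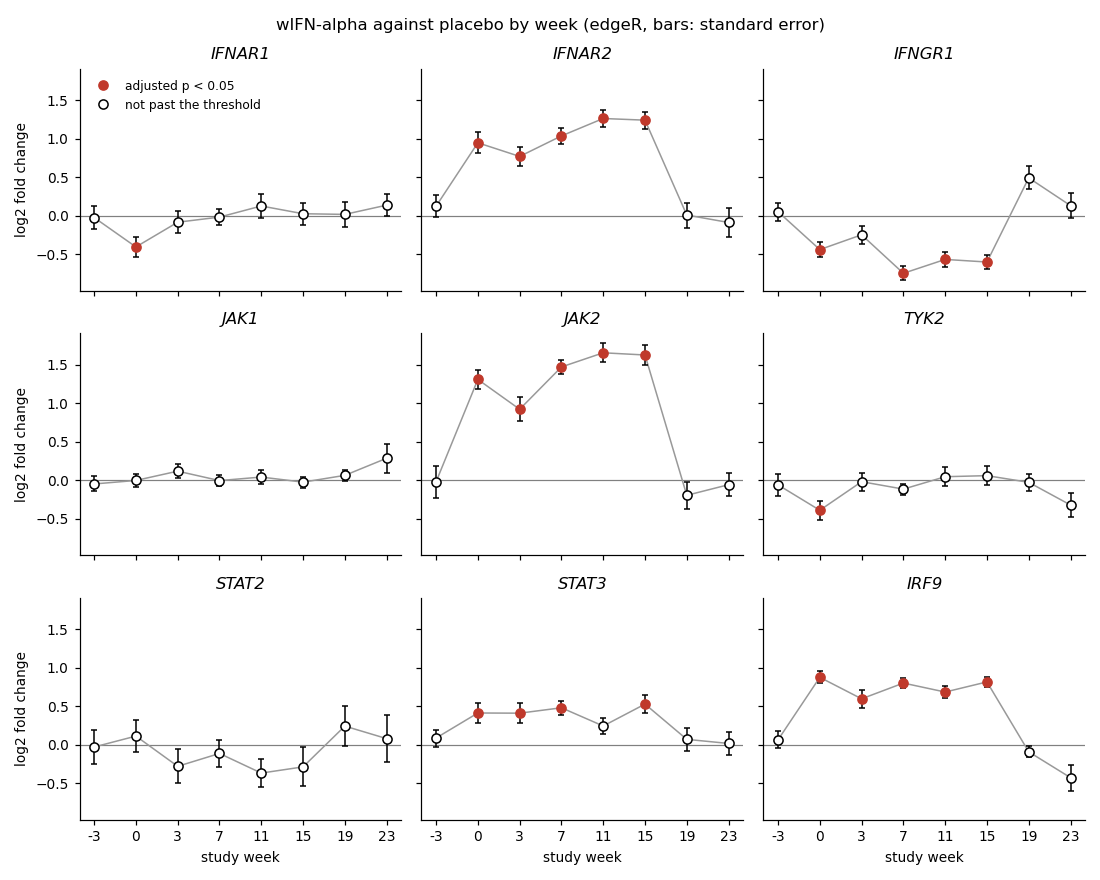
Log2 fold change of wIFN-α against placebo (y axis) by study week (x axis) for each of the 9 genes, with the standard error as bars, red points where the adjusted p was under 0.05 and open points where it was not. IFNAR2, JAK2 and IRF9 stood above 0 at weeks 0 to 15 and returned to about 0 at week 19, and IFNGR1 lay below 0 during treatment and at 0.49 at week 19.

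The receptor chains of type I interferon did not move together. IFNAR2, the chain whose long form carries the docking sites for STAT proteins, ranged over 2.60 to 5.18 RPKM with a median of 4.10 in the 12 placebo animals of week 0 and over 5.53 to 11.3 RPKM with a median of 7.25 in the 11 wIFN-α animals. All 11 treated animals lay above all 12 placebo animals, and the log2 fold change was 0.95 (SE 0.13, adjusted p = 5.4e-06). At week 3 the treated animals lay between 3.79 and 7.38 RPKM and the placebo animals between 2.30 and 4.72, and 7 of 9 treated animals exceeded every placebo animal.

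At the high dose the separation of IFNAR2 was complete. Treated animals ranged over 5.248 to 6.997 RPKM at week 7, 5.12 to 7.25 at week 11 and 5.68 to 7.73 at week 15, whereas no placebo animal exceeded 4.47, 3.31 and 3.76 RPKM in these weeks. The log2 fold changes were 0.77 (SE 0.12, adjusted p = 8.8e-05) at week 3, 1.04 (0.11, 3e-08) at week 7, 1.26 (0.11, 1.9e-08) at week 11 and 1.24 (0.11, 5.4e-08) at week 15. The assembly gives 1 row per gene symbol, so the transmembrane and soluble forms of IFNAR2 were not told apart.

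IFNAR1, the chain that binds TYK2, was lower at week 0 and in no other week. The 11 treated animals of week 0 had 0.983 to 2.13 RPKM with a median of 1.31, and the 12 placebo animals had 1.44 to 2.70 with a median of 1.84. The groups overlapped, but 7 treated animals lay below every placebo animal and 10 of 11 below the placebo mean. The log2 fold change was -0.41 (SE 0.13, adjusted p = 0.014) at week 0. It was -0.08, -0.02, 0.13 and 0.03 at weeks 3, 7, 11 and 15 (adjusted p of at least 0.55). From week -3 to week 0 IFNAR1 in treated animals changed by a mean of -0.14 ± 0.27 (SD, log2 scale), and it rose in 5 of 11. In placebo animals the change was 0.26 ± 0.424, with a rise in 10 of 12. Without the muscle-rich animal F1016 the placebo change was 0.35 ± 0.295. The treated change was not computed without the muscle-rich animal F1018. Its IFNAR1 level at week -3 was 2.23 RPKM, against 1.48 ± 0.271 (SD, n = 10) in the other treated animals.

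IFNGR1 was the member that fell most often. At week 0 it ranged over 7.76 to 13.8 RPKM with a median of 10.1 in placebo animals and over 5.70 to 9.74 with a median of 7.94 in treated animals, and the log2 fold change was -0.44 (SE 0.10, adjusted p = 0.00088). At week 7 the 9 treated animals, at 7.64 to 10.3 RPKM with a median of 8.41, all lay below the 12 placebo animals, at 11.9 to 19.3 with a median of 14.4, and the log2 fold change was -0.75 (0.09, 7.6e-07). The groups were again separate at week 15, with 7.46 to 10.6 RPKM in treated and 11.4 to 18.3 in placebo animals (-0.60, 0.10, 8.2e-05), and overlapped only through placebo animal M1005 (8.65 RPKM) at week 11 (-0.57, 0.09, 8.7e-05). At week 3 the value was -0.25 (0.12, 0.15), and without wIFN-α animal F1013, which had the highest treated level of that week (13.3 RPKM), it was -0.33 (0.11, 0.0403). IFNGR2, its partner chain, was called only at week 15, where it was higher by 0.46 (0.14, 0.014).

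**Figure D2:**
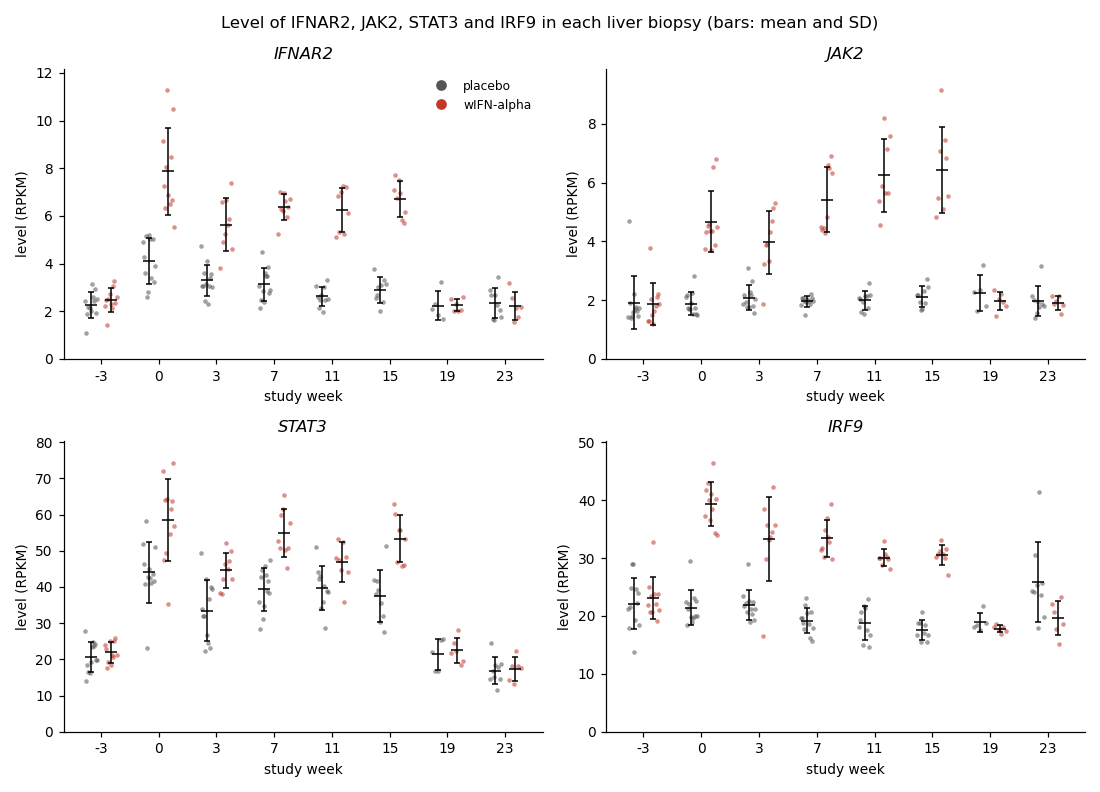
Level in RPKM (y axis, from 0) of IFNAR2, JAK2, STAT3 and IRF9 in every biopsy by study week (x axis), placebo in grey and wIFN-α in red, with the mean and SD as black bars. Treated animals lay above all placebo animals for IFNAR2, JAK2 and IRF9 at weeks 0, 7, 11 and 15, and STAT3 in placebo animals stood at a mean of 44.0 RPKM at week 0 against 20.7 at week -3.

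Among the 3 kinases of the list JAK2 rose and JAK1 and TYK2 did not. In the 12 placebo animals of week 0 JAK2 ranged over 1.5 to 2.81 RPKM with a median of 1.73, and in the 11 treated animals over 3.72 to 6.81 with a median of 4.35. No treated animal overlapped with placebo, and the ratio of the means was 2.48. The log2 fold change of 1.31 (SE 0.12, adjusted p = 6.5e-09) was the highest of the 9 members at week 0, as were those of weeks 3, 7, 11 and 15, at 0.92 (0.16, 0.00017), 1.47 (0.10, 1.4e-11), 1.66 (0.12, 2.5e-09) and 1.63 (0.14, 2.3e-08).

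At week 7 JAK2 ranged over 4.29 to 6.89 RPKM in treated and 1.49 to 2.22 in placebo animals, and at week 15 over 4.84 to 9.15 and 1.68 to 2.73. The groups were separate at weeks 0, 7, 11 and 15. JAK2 is the kinase of the interferon gamma, growth hormone and erythropoietin receptors and is not bound to IFNAR1 or IFNAR2. Over the 149 biopsies the gene patterns most like that of JAK2 were those of HIATL1 (Pearson r = 0.943 on log2(CPM + 1), where CPM are counts scaled to library depth), XRN1 (0.942) and NT5C3 (0.940).

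The JAK2 levels of treated males and females were separate at 2 of the on-treatment weeks, a split that was chosen after the values were seen and was not tested. At week 7 the 4 treated males had 6.32 to 6.89 RPKM and the 5 treated females 4.29 to 4.84. At week 3 the 4 males had 4.32 to 5.30 and the 5 females 1.87 to 3.91, so that the sexes were separate in both weeks. They overlapped at week 0 (3.87 to 6.81 in 5 males, 3.72 to 4.60 in 6 females), at week 11 and at week 15, where female F1020 had the highest level of all, 9.15 RPKM. In placebo animals the sexes overlapped in each of the 8 weeks, with 1.87 to 2.22 RPKM in males and 1.49 to 2.08 in females at week 7. With sex as a covariate JAK2 was called in the same weeks.

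TYK2, the kinase of IFNAR1, was lower at week 0. The treated animals had 4.88 to 12.6 RPKM with a median of 8.46, and the placebo animals 8.19 to 13.9 with a median of 10.9. The groups overlapped, with 4 of 11 treated animals below all placebo animals, and the log2 fold change was -0.39 (SE 0.12, adjusted p = 0.014). From week 3 to week 15 the differences were -0.02, -0.11, 0.05 and 0.06, none of them called. With the week -3 biopsy of the same animal as a replicate block, the change of TYK2 at week 0 was -0.34 (0.14, 0.0527), past the threshold no longer. That block fit held the muscle-rich week -3 biopsies of F1016 and F1018, with TYK2 at 4.32 and 6.55 RPKM. It was not run without them.

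JAK1, the kinase that both interferon receptors share, differed by at most 0.12 in any on-treatment week. Its mean level at week 0 was 12.1 ± 1.86 RPKM (SD, n = 12) in placebo and 12.1 ± 1.26 (n = 11) in treated animals, a log2 fold change of 0.00 (SE 0.08, adjusted p = 0.987). At weeks 3, 7, 11 and 15 the log2 fold changes were 0.12, 0.00, 0.04 and -0.02. It was not called in any week.

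IRF9, the DNA-binding subunit of ISGF3, was called higher in each on-treatment week. At week 0 it ranged over 18.5 to 29.5 RPKM with a median of 20.6 in placebo animals and over 34.0 to 46.4 with a median of 40.0 in treated animals, with no overlap. The log2 fold change was 0.88 (SE 0.08, adjusted p = 2.1e-09) at week 0, 0.60 (0.12, 0.00071) at week 3, 0.80 (0.07, 1.5e-09) at week 7, 0.69 (0.08, 1.8e-06) at week 11 and 0.82 (0.06, 8.7e-09) at week 15. At the high dose the treated animals ranged over 29.9 to 39.4 RPKM at week 7, 28.2 to 32.99 at week 11 and 27.1 to 33.1 at week 15, against 15.6 to 23.1, 14.6 to 22.95 and 15.5 to 20.8 in placebo animals. The groups were separate in all 3 weeks, and of these the treated range was widest at week 7. At week 3, 8 of 9 treated animals lay above all placebo animals, and F1013 lay below all of them.

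IRF9 lies next to Rnf31 in the RefSeq gene order of the woodchuck assembly Marmota_monax_Labrador192_F-V1.1. RNF31, a ubiquitin ligase subunit of the linear ubiquitin chain assembly complex, was the gene with the pattern most like that of IRF9 over all 149 biopsies (r = 0.918). Over the 45 treated on-treatment biopsies it was second (0.832) to MNDA (0.858), and over the 81 placebo biopsies, where r was 0.730, RPL32 (0.789), LAMTOR2 (0.785) and RPL35 (0.784) led. Its log2 fold changes were 1.21, 1.01, 1.19, 1.11 and 1.22 at weeks 0, 3, 7, 11 and 15, all called and each above that of IRF9. The deposited counts are not stated to use strand, so reads where neighboring transcripts overlap could not be assigned. ZNF324 (0.894) and PHRF1 (0.876) followed RNF31 over all biopsies.

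STAT3 was higher under wIFN-α by a smaller amount. At week 0 treated animals had 35.3 to 74.3 RPKM with a median of 61.5 and placebo animals 23.2 to 58.4 with a median of 43.1, and 6 of 11 treated animals lay above all placebo animals. The log2 fold change was 0.41 (SE 0.12, adjusted p = 0.011) at week 0, 0.41 (0.13, 0.027) at week 3, 0.48 (0.09, 0.00013) at week 7, 0.25 (0.10, 0.064) at week 11 and 0.53 (0.11, 0.0013) at week 15. With the animal as a replicate block the changes at weeks 0 and 3 were 0.33 (0.14, 0.0579) and 0.32 (0.14, 0.105), in a fit that held the muscle-rich biopsies. Leaving out F1022 gave an adjusted p of 0.0549 at week 3, and leaving out M1002 gave 0.29 (0.10, 0.0273) at week 11.

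The row listed as STAT2, named for a subunit of ISGF3, did not behave like the other transcription factors. Its level in placebo livers was 494 ± 203 RPKM (SD, n = 12), and only 105 of 13576 genes were higher. Single biopsies had 19888 to 315069 reads on it. At week 0 the placebo animals ranged over 302 to 1149 RPKM with a median of 393 and the treated animals over 308 to 800 with a median of 431, and the log2 fold change was 0.11 (SE 0.21, adjusted p = 0.72). It was -0.28, -0.11, -0.37 and -0.29 at weeks 3, 7, 11 and 15, not called in any of them, and -0.48 (0.17, 0.0379) at week 11 without F1013.

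Single animals held high levels of this row through the study. Placebo animal F1021 had 875 to 1414 RPKM over 7 biopsies and wIFN-α animal F1013 590 to 1149 over 8, while the other 21 animals had 261 to 895 over 134 biopsies with a median of 415. Among these others wIFN-α animal F1023 had 597 and 800 RPKM in its 2 biopsies, and the highest value, 895, belonged to the muscle-rich week -3 biopsy of F1016. Over 149 biopsies its pattern was most like those of LOC100653338 (r = 0.943), FAM120A (0.797) and EI24 (0.784). A correlation chosen after seeing the data was 0.660 with MTRNR2L1, whose sequence resembles mitochondrial ribosomal RNA, and it was -0.065 with the ISG MX1 and -0.094 with APOF, a neighbor of STAT2 in the RefSeq order. Which transcripts gave reads to this row was not tested, and its values are therefore reported as those of the row and not of STAT2.

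**Figure D3:**
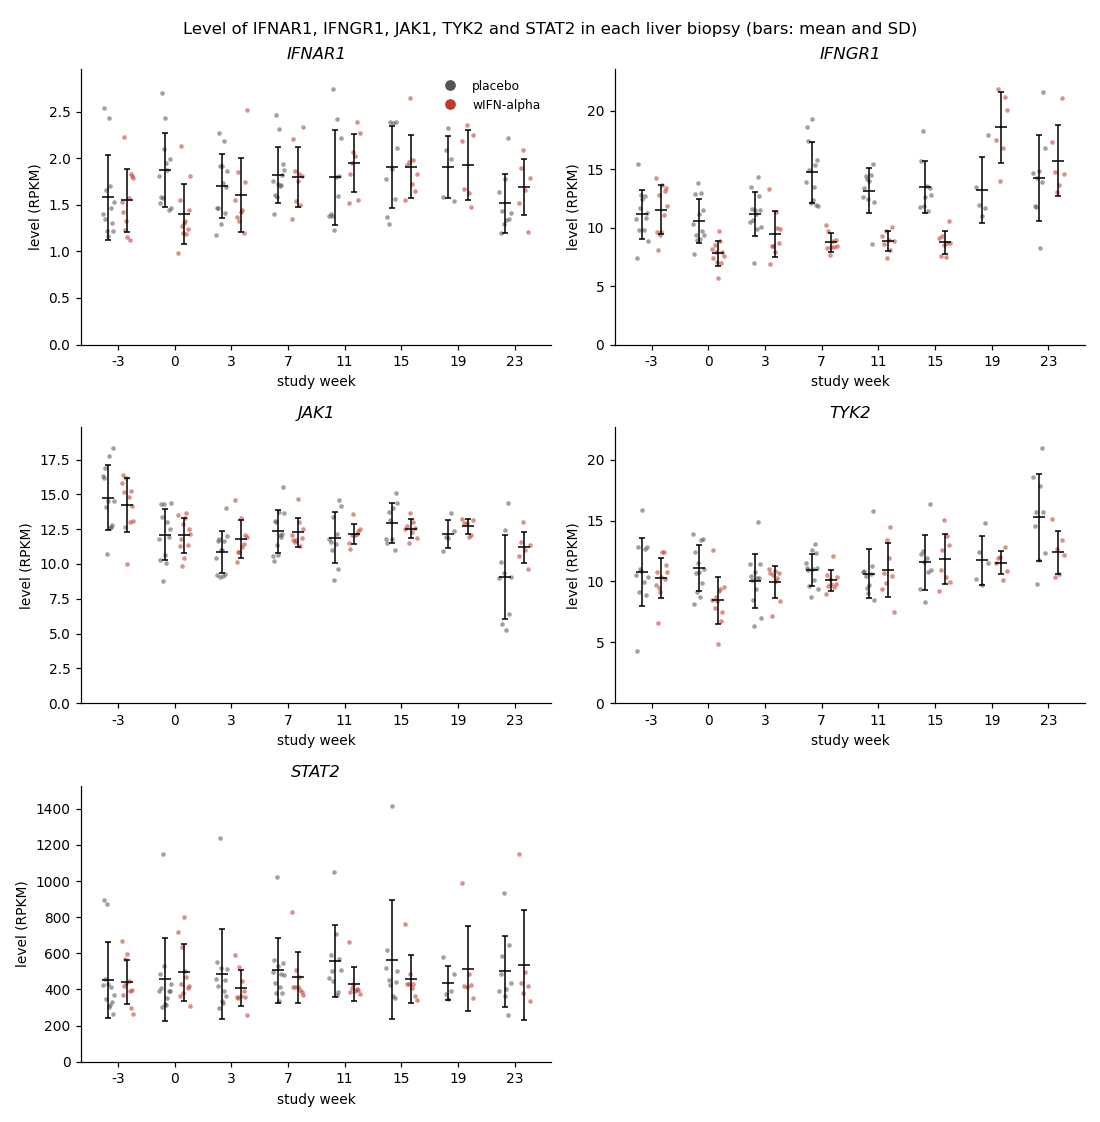
Level in RPKM (y axis, from 0) of IFNAR1, IFNGR1, JAK1, TYK2 and the row listed as STAT2 in every biopsy by study week (x axis), placebo in grey and wIFN-α in red, with the mean and SD as black bars. IFNGR1 in treated animals lay below all placebo animals at weeks 7 and 15, and the STAT2 row held single biopsies of up to 1414 RPKM.

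The first question about repeated dosing is whether the effect of 20 µg at week 3 differed from that at week 0. The difference between the effects, week 3 minus week 0, was tested in 1 fit of the 4 groups. It was -0.39 (SE 0.20, adjusted p = 0.37) for JAK2, -0.28 (0.14, 0.36) for IRF9, -0.17 (0.19, 0.72) for IFNAR2 and 0.00 (0.18, 0.996) for STAT3. Those of the members that were lower than placebo at week 0 were 0.37 (0.17, 0.33) for TYK2, 0.32 (0.19, 0.44) for IFNAR1 and 0.19 (0.15, 0.60) for IFNGR1. No member was called, where 0.325% of all genes had a higher effect and 0.0584% a lower one.

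At week 3 the JAK2 and IRF9 levels of 1 treated animal stood apart from those of the others. F1013, a treated female, was 0.12 below the placebo mean for JAK2 and 0.39 below it for IRF9 on the log2(CPM + 1) scale, and 0.22 above it for IFNAR2. Its IRF9 level of 16.5 RPKM compares with 29.8 to 42.3 in the other 8 treated animals. RNF31 was low in the same biopsy as well, at 15.8 RPKM against 35.8 to 52.8 in the others. At week 0 the same animal stood 0.95 above the placebo mean for JAK2 and 0.79 for IRF9, and at week 7 1.14 and 0.71 above. Without F1013 the difference between the effects of weeks 3 and 0 was -0.33 for JAK2, -0.21 for IRF9 and -0.105 for IFNAR2, each closer to 0, and no member was called.

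**Figure D4:**
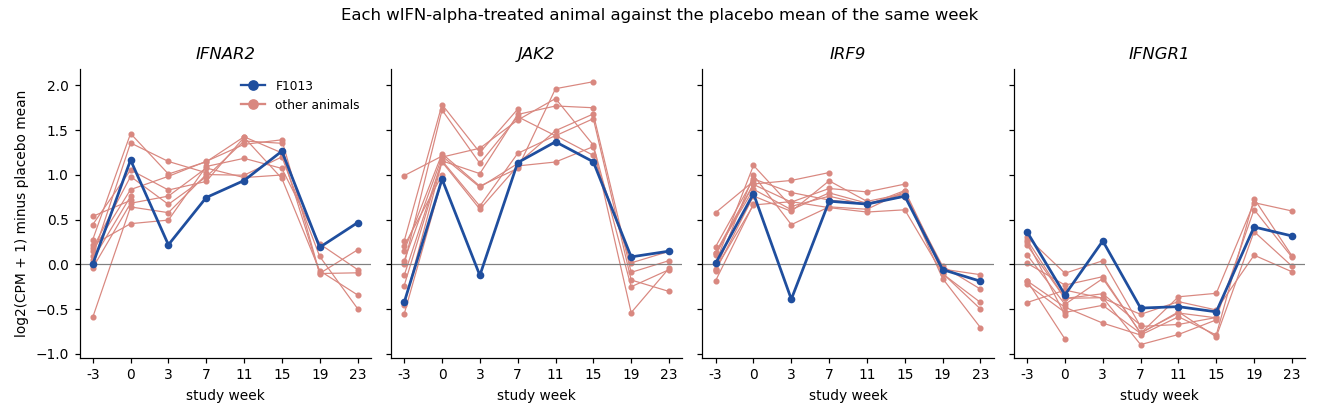
Log2(CPM + 1) of each wIFN-α animal minus the placebo mean of the same week (y axis) by study week (x axis) for IFNAR2, JAK2, IRF9 and IFNGR1, with 1 line per animal and F1013 in blue. F1013 dropped to -0.12 for JAK2 and -0.39 for IRF9 at week 3 and was again within the range of the other animals for both at week 7.

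The dose step compared the effect of the first 100 µg dose at week 7 with that of 20 µg at week 3. JAK2 differed by 0.56 (SE 0.19, adjusted p = 0.18), IFNGR1 by -0.49 (0.15, 0.13), IFNAR2 by 0.27 (0.17, 0.52), IRF9 by 0.21 (0.14, 0.55) and STAT3 by 0.08 (0.16, 0.88). No member was called, where 0.169% of all genes were called higher and 0.123% lower. With the animal as a replicate block IFNGR1 was called, at -0.47 (0.11, 0.0269), and JAK2 was not (adjusted p = 0.0568). From week 7 to week 15, at a constant 100 µg, the 9 differences lay between -0.19 and 0.19 with adjusted p of at least 0.81, where 0% of all genes were called higher and 0.00649% lower. In this comparison 1429 genes had an unadjusted p under 0.05.

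The largest differences between effects followed the end of treatment. At week 19 JAK2 ranged over 1.45 to 2.33 RPKM in 6 former wIFN-α animals and 1.63 to 3.19 in 5 placebo animals, IFNAR2 over 2.01 to 2.58 and 1.68 to 3.24, and IRF9 over 16.8 to 18.6 and 17.6 to 21.6. The groups overlapped for all 3 genes. The effect of week 19 minus that of week 15 was -1.80 (SE 0.22, adjusted p = 5.9e-07) for JAK2, -1.21 (0.19, 2.5e-05) for IFNAR2, -0.88 (0.09, 2.6e-08) for IRF9 and -0.43 (0.19, 0.10) for STAT3. For IFNGR1 it was 1.12 (0.17, 2.6e-05). Of the 9 members 1 was called higher and 3 lower, where 9.69% of all genes were called higher and 13.1% lower.

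After treatment IFNGR1 lay on the other side of placebo, without passing the threshold. At week 19 the former wIFN-α animals had 14.0 to 21.9 RPKM with a median of 18.8 and the 5 placebo animals 10.99, 11.7, 11.9, 13.5 and 18.0. All 6 lay above the placebo mean and 3 above all placebo animals, and the log2 fold change was 0.49 (SE 0.15), which did not pass the threshold over all genes (adjusted p = 0.30). At week 23 the groups overlapped again, at 13.0 to 21.1 and 8.31 to 21.6 RPKM. IRF9 was then at 15.2 to 23.2 RPKM in former wIFN-α and 17.9 to 41.5 in placebo animals, which differ by a log2 fold change of -0.43 (0.17, 0.28) that was called, at -0.40 (0.11, 0.0255), in 1 fit of all weeks.

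Placebo livers changed as well between the weeks before and during the dosing period, and STAT3 changed most. From week -3 to week 0 the mean level of STAT3 went from 20.7 to 44.0 RPKM in the same 12 placebo animals, and the mean change was 1.09 ± 0.389 (SD, log2 scale). It rose in 12 of 12 animals (exact two-sided sign-flip permutation p = 0.000488, the smallest that 12 animals can give, 1 of 18 such tests of the members, whose p-values are given unadjusted). IFNAR2 rose from 2.27 to 4.09 RPKM, again in 12 of 12 animals (0.85 ± 0.441, exact permutation p = 0.000488). Without the muscle-rich animal F1016 the changes were 1.03 for STAT3 and 0.75 for IFNAR2, each in 11 of 11 animals. Over all genes 2.44% were higher in each of the 12.

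JAK1 fell in 11 of the 12, from 14.8 to 12.1 RPKM (-0.28 ± 0.265, exact permutation p = 0.00244; -0.25 without F1016). JAK2 and IRF9, which rose under wIFN-α, had changes of 0.04 ± 0.457 and -0.03 ± 0.232 (exact permutation p = 0.787 and 0.645). Without F1016 that of JAK2 was 0.15 ± 0.288 (exact permutation p = 0.133) and that of IRF9 -0.03. IFNAR1 changed by 0.26 ± 0.424 (exact permutation p = 0.0625), and by 0.35 ± 0.295 without F1016 (exact permutation p = 0.00293). The comparison of wIFN-α with placebo at week 0 is therefore one with placebo livers that also differed from week -3.

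**Figure D5:**
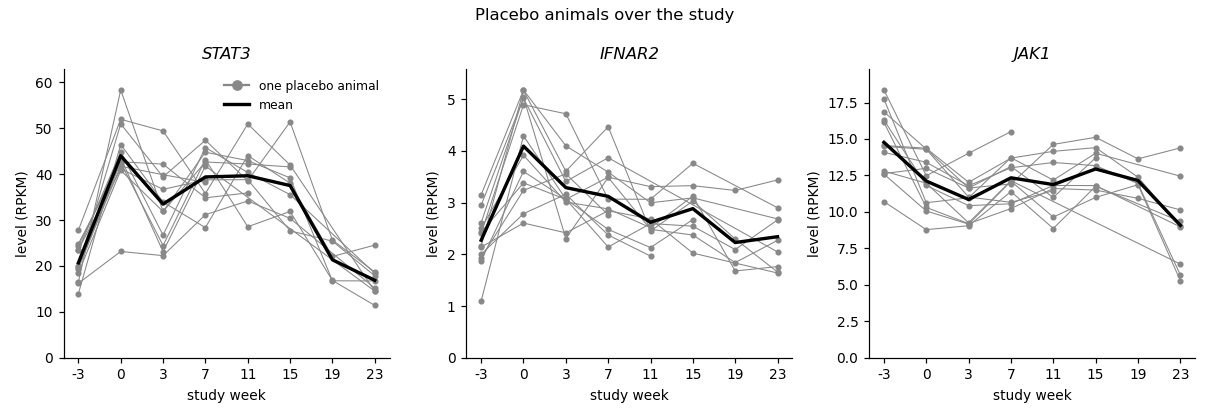
Level in RPKM (y axis, from 0) of STAT3, IFNAR2 and JAK1 in placebo animals by study week (x axis), with 1 grey line per animal and the mean in black. Mean STAT3 was 20.7 RPKM at week -3, between 33.5 and 44.0 from week 0 to week 15, and 21.3 and 16.9 at weeks 19 and 23.

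STAT3 in placebo animals stayed between a mean of 33.5 and 44.0 RPKM from week 0 to week 15 and was back at 21.3 at week 19 and 16.9 at week 23. Among the 8 placebo animals biopsied at both weeks 15 and 23 it fell in all 8, from 37.0 to 17.2 RPKM (-1.11 ± 0.369, exact permutation p = 0.00781, the smallest that 8 animals can give). IFNAR1 (-0.37 ± 0.237) and JAK1 (-0.51 ± 0.427) fell with it in all 8, IRF9 rose in all 8 from 17.5 to 25.9 RPKM (0.53 ± 0.378), each with the same p, and TYK2 rose in 7 of 8 (0.39 ± 0.320, exact permutation p = 0.0156). Over all genes 12.3% fell and 9.44% rose in each of the 8. In wIFN-α animals STAT3 went from 21.9 RPKM at week -3 to 58.5 at week 0 and from 54.2 at week 15 to 17.3 at week 23 in the 6 animals biopsied at both. The mean change from week -3 to week 0 was 1.4 ± 0.255 (n = 11) in the wIFN-α animals. It was not computed without the muscle-rich animal F1018. STAT3 at week -3 was 17.6 RPKM in F1018, against 22.3 ± 2.58 (SD, n = 10) in the other treated animals.

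Several genes known as STAT3 targets were also higher in placebo livers at week 0. Of 15 such genes 8 were higher at week 0 than at week -3 in all 12 placebo animals (53.3%), against 2.44% of 13670 genes with a mean log2(CPM + 1) of at least 1. They were SOCS3, the feedback inhibitor of interleukin-6 signaling (2.07 ± 0.554 on the log2 scale), the transcriptional regulators JUNB (1.45 ± 0.472) and BCL3 (1.13 ± 0.496), the fibrinogen chains FGA (1.75 ± 2.05), FGB (1.92 ± 2.27) and FGG (1.85 ± 2.63), the acute phase protein SAA1 (1.79 ± 2.28), and HAMP, which encodes the iron hormone hepcidin (2.94 ± 1.92). Without F1016, whose week -3 biopsy held few hepatocyte reads, the changes were 1.17 ± 0.381 for FGA, 1.27 ± 0.364 for FGB, 1.10 ± 0.359 for FGG, 1.17 ± 0.743 for SAA1, 2.61 ± 1.61 for HAMP and 1.98 ± 0.476 for SOCS3. The same number, 8 of 15, was then higher in all 11 animals, against 4.11% of all those genes, with a median of 1.10. The median change of the 15 was 1.13, against 0.01 over all those genes. Of 16 ISGF3 targets only IFIT2 was higher in all 12 (1.22 ± 0.706, and 1.03 ± 0.312 without F1016). Over the 81 placebo biopsies STAT3 and SOCS3 correlated at r = 0.752. The biopsies of weeks 0 to 15 followed an injection and those of weeks -3, 19 and 23 did not, so that injection and time cannot be told apart here.

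Other genes of the pathway were taken from lists of their own. Counts of calls in these lists stand beside 18.4%, 11.8%, 23.6%, 20.2% and 22.3% of all genes called higher and 16.2%, 7.6%, 23%, 17.2% and 19.2% called lower at weeks 0, 3, 7, 11 and 15. JAK3, the kinase of the common gamma chain, was called higher in all 5 on-treatment weeks, by 0.59 at week 0 and 0.82 at week 15, and STAT5A by 0.27 and 0.34. STAT5B was lower at weeks 0, 7, 11 and 15, at -0.24, -0.26, -0.19 and -0.21, and not called at week 3. STAT6 was called only at week 15 (0.73, SE 0.23, adjusted p = 0.017), and STAT4 in no week.

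Of 11 tested receptor chains of related cytokines 5 were called higher and 2 lower at week 0, with a median log2 fold change of 0.29 against -0.01 over all genes. OSMR, the oncostatin M receptor, was higher by 1.41, IL15RA by 1.23 and IL10RA by 0.72, while EPOR, the erythropoietin receptor that signals through JAK2, fell by 2.39 on the log2 scale (SE 0.28, adjusted p = 3.1e-07) and IL6R fell by 0.54. EPOR was called lower in all 5 on-treatment weeks, at -0.93, -1.72, -2.33 and -1.76 at weeks 3, 7, 11 and 15. At week 15 the counts were 7 higher and 3 lower, with a median of 0.46. Among 3 tested ligand genes LIF (1.68) and IL15 (1.15) were called higher at week 0. Of 7 genes of nuclear transport and coactivation CREBBP (0.21) was higher and KPNA2 (-0.60) lower at week 0. That is 1 of 7 in each direction, which cannot be told from the shares of all genes. At week 3 EP300 (0.29) was called higher. At week 7 CREBBP (0.19), EP300 (0.23) and KPNA5 (1.05) were called higher and KPNA2 (-0.41) lower. CREBBP (0.21), EP300 (0.35) and KPNA5 (1.25) were called higher at week 11.

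Of the 19 negative regulators 6 were called higher and 0 lower at week 0, with a median of 0.12, and 7, 7, 7 and 8 were called higher at weeks 3, 7, 11 and 15. At week 7, 2 were called lower, SOCS7 (-0.23) and the phosphatase PTPN11 (-0.23), and in the other on-treatment weeks 0. USP18, which displaces JAK1 from IFNAR2, rose by 4.44 (SE 0.40, adjusted p = 3.7e-09) at week 0 and by 5.43, 5.47, 5.54 and 5.62 afterwards. The kinase inhibitor SOCS1 rose by 1.46, 0.78, 1.07, 1.09 and 1.46 in the 5 weeks, and the phosphatase PTPN1 by 1.51, 1.18, 1.45, 1.34 and 1.57. SOCS3 was higher by 1.30, 0.86, 1.04 and 0.92 at weeks 0, 3, 7 and 15, and at week 11 the value was 0.56 (adjusted p = 0.18). IFNAR2 and PTPN1 had like patterns over the 149 biopsies (r = 0.912), after PARP8 (0.927) and RIPK1 (0.916).

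All 15 tested ISGF3 targets were called higher at weeks 0, 3, 7 and 11, with medians of 4.28, 4.34, 4.64 and 4.52, and at week 15 it was 15 of 16, with a median of 4.46 and IFI6 not called (-0.25, adjusted p = 0.537). At week 0 IFIT3 (6.55), RSAD2 (5.89) and IFIT2 (5.21) led the list. At week 3, where no treated-minus-placebo effect of a member was called different from week 0, the median difference of these targets was 0.11. Of 11 genes induced by interferon gamma 9, 9, 10, 10 and 11 were called higher at weeks 0, 3, 7, 11 and 15. The medians were 1.61, 1.34, 2.07, 3.46 and 3.37, and CXCL10 (5.19), GBP1 (4.24) and GBP2 (3.77) led at week 0. CXCL9 was not called at weeks 0 (0.77, adjusted p = 0.22) and 3 (0.94, 0.27), and CIITA was not called before week 15. The interferon given was wIFN-α, and which interferon raised the genes of this list was not tested. The log2 fold changes of IFNGR1 in the same 5 weeks were -0.44, -0.25, -0.75, -0.57 and -0.60, and weeks 11 and 15 were also those with the most T and NK cell markers called higher. Of 15 STAT3 targets 8, 4, 12, 5 and 10 were called higher in the 5 weeks, and LCN2 was called lower at weeks 3 (-1.37) and 7 (-0.63). The list was led at week 0 by CEBPD (1.92), HAMP (1.403) and SOCS3 (1.30). The lists overlap in SOCS3.

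Markers of other cell types were examined beside these results. Markers of T and NK cells were called higher for 2 of 12 genes at week 0, no more than the 18.4% of all genes, 2 of 11 at week 3, 3 of 11 at week 7, 8 of 12 at week 11 and 10 of 12 at week 15. Their summed share of reads ranged over 0.00400% to 0.0140% in treated and 0.00554% to 0.0116% in placebo animals at week 0, and over 0.00942% to 0.0246% and 0.00456% to 0.00744% at week 15. Treated animal F1020 had the highest share at weeks 11 and 15 and the highest JAK2 level in both weeks. Of 5 tested B and plasma cell markers MS4A1 (1.58), MZB1 (1.76) and CD79A (0.99) were called higher at week 15. Of 10 endothelial and stellate markers LYVE1 was called higher in each on-treatment week, and 1, 2, 4, 2 and 2 were called lower at weeks 0, 3, 7, 11 and 15, among them COL1A1 (-1.73), COL3A1 (-0.98) and VWF (-1.03) at week 7. Of 10 hepatocyte markers none was called at weeks 0, 3 and 15, CYP2E1 (-0.60) and CPS1 (-0.36) were lower at week 7, and CYP2E1 (-0.69) was lower at week 11. Of the myeloid markers ITGAM (-1.05) was called lower and CD68 (0.79) higher at week 0. At week 7 ITGAM (-0.94), CD163 (-0.99) and VSIG4 (-0.60) were called lower and CD68 (0.37) higher. Of the neutrophil markers only CSF3R was called in these 2 weeks, higher by 1.59 and 1.75. The part of these cell types in the levels of the members was not tested. IFNAR2, JAK2, STAT3 and IRF9 were higher in treated on-treatment biopsies within each of the 7 lane numbers of the labels. IFNGR1 was lower within each of the 7. The share of all genes with 1 direction in every lane number was not counted. Animals recur between lane numbers, so the 7 comparisons are not independent. A biopsy of several runs was placed by the lane number of its deepest run. Pairs of lane number and barcode recur between animals, so a lane number can stand for several lanes.

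The muscle-rich biopsies had their own levels of the members. At week -3 JAK2 was 4.71 RPKM in F1016 and 3.76 in F1018, against 1.66 ± 0.248 (SD, n = 11) and 1.69 ± 0.368 (n = 10) in the other animals of their groups, and TYK2 was 4.32 and 6.55, against 11.4 ± 2.04 and 10.7 ± 1.15. IFNAR2 was also lower in both, at 1.10 and 1.41 RPKM. At week 3 F1021 had 3.10 RPKM of JAK2 and 6.31 of TYK2. Without the 3 biopsies, an alternative added after seeing the data, no member was called at week -3, and the same number, 4 higher and 0 lower, was called at week 3, with JAK2 at 1.00 in place of 0.92.

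Correlations between members differed between all biopsies and those of 1 arm. Over the 149 biopsies, which share animals and weeks and mix treated with untreated livers, IFNAR2 correlated with STAT3 (r = 0.806), JAK2 (0.757) and IRF9 (0.665), JAK2 with IRF9 (0.653), and IFNGR1 with IFNAR2 (-0.646) and IRF9 (-0.662). Within the 81 placebo biopsies the same 6 values were 0.661, 0.010, -0.216, -0.289, -0.189 and -0.258, and within the 45 treated on-treatment biopsies 0.615, 0.231, 0.545, 0.159, -0.508 and -0.508. IFNAR2 and STAT3 thus kept an r above 0.6 in both of these sets, whereas those of JAK2 with IFNAR2 and IRF9 were near 0 or negative in placebo animals. The sets are unlike, as the placebo biopsies span all weeks and the treated ones only the on-treatment weeks. Over all biopsies r was 0.016 for IFNAR1 and IFNAR2 and 0.045 for JAK1 and IFNAR2. Outside the list IFNGR1 was most like SHQ1 (0.827), ZFYVE21 (0.811) and USP51 (0.795), STAT3 most like ADSS (0.883), HPS5 (0.876) and KIAA0196 (0.875), and TYK2 most like MYO9B (0.826), PLCB2 (0.811) and UNC13D (0.810). For JAK1 the nearest genes were MBTPS1 (0.697), PTPRG (0.693) and UTRN (0.680), and for IFNAR1 HIPK1 (0.595), PUM2 (0.593) and PPP1R21 (0.569).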

How the data were processed

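Poly(A) RNA of liver biopsies was sequenced as paired-end reads by the authors, who used Bowtie2 to place the reads on a woodchuck transcriptome of their own assembly and SAMtools to count them per gene; versions are not given in the sources used here. The deposited values are expected counts per gene without normalization, of which 118 of 3368023 nonzero entries are fractions, and RPKM values that the authors computed from them. The 203 runs were added up to 164 biopsies, and the sums were rounded. Of these 149 entered the comparisons, 7 belonged to animal M1004 and 8 to other or terminal dates. All value columns had a sample, and the entry of the virus was removed. Labels count the first treatment week as 1, and the study's weeks are used.

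Counts were tested with edgeR 4.0.16 (R 4.3.3) by TMM, filterByExpr and the quasi-likelihood test, with 1 fit per week, or of 4 groups for differences between effects. Standard errors were derived from each effect and F statistic. Alternatives used DESeq2 1.42.0, limma 3.58.1, RLE size factors, no filter, the deepest run, M1004 included, sex as a covariate, 1 fit of all weeks, a fold change above 1.5, the animal as a replicate block and single wIFN-α animals left out, and at week 19 and for withdrawal also single placebo animals of week 19. No animal was left out at weeks -3 and 23. The tests were checked on simulated data. RPKM here are TMM-normalized counts over the transcript length implied by the authors' ratio of count to RPKM. Correlations used log2(CPM + 1) and genes whose mean reached 1 CPM. Placebo courses used exact sign-flip permutations. Python 3.11.15, numpy 2.4.6, pandas 2.3.3 and matplotlib 3.10.9 were used.

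The members and lists were chosen with earlier results of these data known. Named were every member, the 3 highest and 2 lowest called genes of each pathway list at week 0, some fixed regulators, and the 3 genes most like each member; APOF and MTRNR2L1, the placebo course, the split by sex and the settings on muscle reads and on placebo animals left out of the withdrawal comparison were chosen after the values were seen. Samples of 1 animal share its number in the labels: their deviations from the group means correlated at a median of 0.311 (450 pairs, 328 above 0.1, 13915 genes), against -0.024 between other animals (4409 pairs). Animals are the replicates. No genome was used, and neighbors come from the RefSeq order alone. One gene of the list of other JAK and STAT genes is not reported here, nor are that list's counts.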

Additional observations from a re-analysis of the deposited data

Results flagged for a closer look

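Animal M1004, which belonged to the wIFN-α group and was left out of all comparisons, lay above every placebo animal of the same week in 16 values, given in RPKM on library size alone. IFNAR2 was 5.63 at week 0, 4.85 at week 3, 5.68 at week 7, 6.11 at week 11 and 5.999 at week 15, and JAK2 was 4.79, 3.38, 5.88, 6.30 and 5.40 in the same weeks. IRF9 was 27.8, 26.9 and 27.5 at weeks 7, 11 and 15, and STAT3 was 47.8 at week 7. IFNGR1 was 14.1 at week -3, before treatment, against at most 14.0 in placebo animals, and IFNAR1 was 3.10 at week 19, against at most 2.39. The rise of IFNAR2 and JAK2 was thus also seen in this animal during treatment. Its IFNGR1 level was below every placebo animal at week 7 (8 against a lowest of 10.99), week 11 (8.45 against 9.36) and week 15 (8.17 against 11.15). At weeks 0 and 3 it was within the placebo range.

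Of 8 biopsies at other or terminal dates, which entered no comparison, 3 from wIFN-α animals had members above all placebo biopsies of all weeks. M1006 had 7.90 RPKM of IFNAR2 and 5.04 of JAK2, M1007 at its end of life had 8.59 and 7.46, and F1023 at its end of life had 62.8 of STAT3.

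In 14 of 90 groups of 4 to 10 animals 1 animal stood far from the others by Dixon's test, which chance alone picks out in about 1 group in 20. Of these, 7 concerned the row listed as STAT2. F1013 had 831 RPKM at week 7, 661 at week 11, 764 at week 15, 989 at week 19 and 1149 at week 23 in the wIFN-α group, and F1021 had 1049 at week 11 and 1414 at week 15 in the placebo group. F1013 had the low IRF9 level of 16.5 RPKM at week 3. IFNAR1 was high in the wIFN-α animals M1012 at week 3 (2.52) and F1020 at week 15 (2.65), and TYK2 in wIFN-α animal M1002 at week 7 (12.1) and placebo animal M1008 at week 11 (15.8). Placebo animal M1008 also had a high JAK2 level at week 23 (3.16), and placebo animal M1005 a low IFNGR1 level at week 11 (8.65).

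The effects of wIFN-α at weeks 15 and 19 differed by the edgeR test of the difference for 4 members, by -1.80 on the log2 scale for JAK2, -1.21 for IFNAR2, -0.88 for IRF9 and 1.12 for IFNGR1. Treated levels of the first 3 were no longer above placebo at week 19.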

How the results depend on the processing

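No call of a member that passed the threshold changed direction under any alternative run. IFNAR2, JAK2 and IRF9 were called in all 5 on-treatment weeks under each of them, and IFNGR1 at weeks 0, 7, 11 and 15 under each except a fold change above 1.5. That rule left 0 members lower at weeks 0 and 11, where 3 and 1 had been called, and ended the calls of STAT3 in all 4 weeks. In 1 fit of all weeks 1 member, IRF9, was called lower at week 23. The animal as a replicate block called 1 member lower in the dose step, IFNGR1, ended the calls of TYK2 and STAT3 named above, and changed no other call of a member. Without F1013 the members called lower were 1 at week 3 and 2 at week 11, and over the animals left out in turn they ranged from 0 to 1 and from 1 to 2. Over all genes the count of calls moved by over 1.5 times from 59 (week 3 minus week 0) to 11 with sex as a covariate and 389 in 1 fit of all weeks, from 45 (dose step) to 6 with limma-voom and 411 with the block, from 1 (constant dose) to 0 with the deepest run and 34 with the block, and from 6928 (week 7) to 4075 with the block. It rose from 0 to 170 with DESeq2 at week 19 and from 0 to 621 in 1 fit of all weeks at week 23.

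Members that were not called crossed 0 on the log2 scale under single alternatives, and the cause was not tested. With the block the values became 0.052 (JAK1, week 0), 0.008 (TYK2, week 3), 0.004 (IFNAR1, week 7), 0.011 (JAK1, week 7), -0.032 (IFNAR2, week 19), 0.017 (TYK2, week 19), -0.015 (STAT3, week 19), 0.115 (JAK2, week 23), -0.089 (STAT3, week 23), 0.016 (IRF9, constant dose) and 0.149 (TYK2, withdrawal). With limma-voom they were 0.019 (IFNAR1, week -3), 0.018 (JAK2, week -3), 0.051 (STAT2 row, week -3), 0.014 (JAK1, week 0), 0.008 (TYK2, week 3), 0.000 (JAK1, week 7), -0.003 (STAT2 row, week 23) and 0.040 (STAT3, week 3 minus week 0). Without the 3 muscle-rich biopsies they were 0.033 (JAK2, week -3), 0.113 (STAT2 row, week -3) and -0.056 (STAT2 row, dose step). No filter gave 0.002 (JAK1, week 0), sex as a covariate 0.006 (JAK1, week 7) and -0.059 (STAT2 row, week 23), M1004 included 0.010 (TYK2, week 3), 0.023 (TYK2, week 19) and 0.001 (IRF9, constant dose), the deepest run -0.006 (IFNAR2, week 19) and 0.010 (IRF9, constant dose), and 1 fit of all weeks 0.003 (STAT3, week 3 minus week 0).

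With 1 animal left out at a time the uncalled values that crossed 0 ranged from -0.018 to 0.024 (JAK1, week 0), -0.039 to 0.028 (TYK2, week 3), -0.073 to 0.026 (IFNAR1, week 7), -0.036 to 0.011 (JAK1, week 7), -0.023 to 0.106 (TYK2, week 11) and -0.060 to 0.053 (IFNAR1, week 15). At week 19 they ranged from -0.053 to 0.095 (IFNAR1), -0.081 to 0.187 (IFNAR2), -0.087 to 0.076 (TYK2), -0.052 to 0.370 (STAT2 row) and -0.004 to 0.147 (STAT3). Between weeks 3 and 0 STAT3 ranged from -0.060 to 0.045, at the constant dose IFNAR1 from -0.083 to 0.094, JAK1 from -0.068 to 0.001, STAT3 from -0.013 to 0.076 and IRF9 from -0.021 to 0.032, and at withdrawal IFNAR1 from -0.086 to 0.102. Week 19 rests on 5 placebo and 6 wIFN-α animals.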
